A study of Mus musculus with 18 samples.

Results

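Where H3K4me1 lay relative to initiating RNA polymerase II was measured around 36386 peak summits of RNA polymerase II phosphorylated at serine 5 (PolII_S5P) on chromosomes 1 to 19. They were all the PolII_S5P summits on those chromosomes, out of 36950 PolII_S5P peaks and 494199 peaks in the 15 ChIP-seq lists of the series. A summit is the base of strongest signal that the peak caller marked within a peak. Each summit was set against the H3K4me1 peaks of the same animal, and positions 0.5, 1, 2, 3, 5, 10 and 20 kb away on either side were scored as inside or outside an H3K4me1 peak. The share given for an offset is taken over the left and right positions of all summits.

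Cerebral cortices were bought frozen from a supplier and came from 3 wild-type C57BL/6J mice, all female and 14 weeks old, with the numbers 5, 7 and 9. No treatment is listed in the labels, and there is no mutant group. Each animal gave 1 library per antibody, against PolII_S5P, H3K4me1, H3K27ac, MBD3 and TDG. The lists describe whole cortex, in which neurons and glia are mixed.

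Serine 5 of the polymerase's C-terminal repeat is phosphorylated as transcription begins, so PolII_S5P collects near transcription start sites and at active enhancers. H3K4me1 is laid down mainly by the methyltransferases MLL3 and MLL4 at enhancers, and around active promoters it typically lies to the sides of the start site, where H3K4me3 occupies the centre. H3K27ac, deposited by CBP and p300, marks active promoters and enhancers, and MBD3 is a subunit of the NuRD remodelling and deacetylase complex.

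The lists differed in length. Animals 5, 7 and 9 gave 4351, 19509 and 12526 PolII_S5P summits and 33744, 45575 and 22555 H3K4me1 peaks on chromosomes 1 to 19. The H3K4me1 peaks covered 0.805%, 1.29% and 0.556% of the span of these chromosomes. PolII_S5P peaks were short, with median widths of 349, 387 and 363 bp, and H3K4me1 peaks had median widths of 456, 527 and 472 bp.

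H3K4me1 was found at a minority of PolII_S5P summits, was scarcer 0.5 kb away, came back at 1 kb and thinned out slowly beyond 2 kb. The share of summits inside an H3K4me1 peak was 8.96% in animal 5, 13.8% in animal 7 and 8.33% in animal 9. At 0.5 kb the shares were 5.40%, 9.18% and 5.06%, and at 1 kb 7.15%, 12.03% and 6.51%. Every animal had the same shape, with a central maximum, a trough and a shoulder, and animal 7, which has the longest H3K4me1 list, was highest at each offset.

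The mean shares were 10.4% ± 3.01 (SD, n = 3) at the summit, 6.55% ± 2.29 at 0.5 kb, 8.56% ± 3.02 at 1 kb and 7.32% ± 2.53 at 2 kb. They went on to 6.14% ± 2.22 at 3 kb, 5.36% ± 2.00 at 5 kb, 4.85% ± 1.79 at 10 kb and 4.27% ± 1.73 at 20 kb. Even at 20 kb the share was 3.85, 4.84 and 6.21 times the part of the chromosomes that H3K4me1 peaks cover in animals 5, 7 and 9. At the summit this ratio was 11.1, 10.7 and 15.0.

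Against the summit, the share at 2 kb was lower in each of the 3 animals, by a mean difference of -3.05 ± 0.525 percentage points (SD of the within-animal differences, n = 3). The values of the animals overlapped between both offsets (two-sided exact permutation test, p = 0.3, adjusted p = 0.35 over 7 offsets). At 5, 10 and 20 kb no animal's value reached the lowest value at the summit (exact permutation p = 0.1 each, adjusted p = 0.233). The step from 0.5 to 1 kb was 1.75, 2.84 and 1.44 points in animals 5, 7 and 9, of 1 sign, with a mean of 2.01 ± 0.735 (SD of the within-animal differences, n = 3). The shares themselves overlapped between both offsets (exact permutation p = 0.5). With 3 animals against 3 the smallest p is 0.1, so no comparison here can pass 0.05. Differences are described by size, direction and overlap of the animals.

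A flank was called marked when any base between 0.5 and 3 kb from the summit lay in an H3K4me1 peak. Most summits had neither flank marked, namely 63.0%, 51.3% and 67.7% in animals 5, 7 and 9 (mean 60.7% ± 8.41, SD, n = 3). A single flank was marked at 27.1%, 31.9% and 23.8% of summits (27.6% ± 4.08). Both flanks were marked at 9.91%, 16.8% and 8.57% (11.8% ± 4.41). The exact 95% binomial intervals of the last shares were 9.03 to 10.8%, 16.3 to 17.3% and 8.09 to 9.08%. These intervals cover counting error only. With each flank marked at a minority of summits, single-sided calls outnumber two-sided ones even if the sides are unrelated, so their order does not show one-sidedness. H3K4me1 beside the polymerase was more often called on a single side than on both. The same was seen for the positions at 1 kb alone, where a single side was covered at 11.1%, 17.8% and 10.5% of summits and both sides at 1.59%, 3.13% and 1.25%.

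The classical picture of a summit free of H3K4me1 between 2 marked flanks held for 5.70%, 8.45% and 4.69% of summits. Both flanks and the summit were marked at 4.21%, 8.33% and 3.89%. H3K4me1 at the summit with neither flank marked was rare, at 1.75%, 1.28% and 1.34%. Left and right flanks, taken along the chromosome and not along genes, were marked equally often, at 23.8% and 23.2% in animal 5, 32.6% and 32.9% in animal 7 and 20.5% and 20.4% in animal 9. Marked left and right flanks fell on the same summit 1.80, 1.57 and 2.05 times as often as the product of both shares. Among summits with no other PolII_S5P summit within 20 kb the ratios were lower, at 1.23, 1.18 and 1.55.

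H3K27ac separated the flanks more than the centre. A peak of H3K27ac overlapped 60.8%, 61.1% and 59.6% of the PolII_S5P peaks in animals 5, 7 and 9, which are called acetylated below. At the summit, H3K4me1 covered 9.71%, 15.7% and 9.61% of acetylated and 7.80%, 10.9% and 6.45% of the other summits. The difference of 3.29 ± 1.45 points had 1 sign in all animals, but the values overlapped (exact permutation p = 0.3, adjusted p = 0.48 over 8 offsets). It changed sign, to -0.90 points, among summits with no other PolII_S5P summit within 20 kb. It was -1.18 points when the PolII_S5P, H3K4me1, H3K27ac and MBD3 lists were all cut to a −log10 q of at least 5.

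At 1 kb, H3K4me1 covered 9.54%, 15.6% and 8.24% of the positions beside acetylated summits against 3.43%, 6.39% and 3.95% beside the others. Every acetylated value lay above every other value, with a mean difference of 6.54 ± 2.49 points (exact permutation p = 0.1, adjusted p = 0.267). The same held at 2 kb, where 9.23% ± 3.11 stood against 4.38% ± 1.66 (SD, n = 3). With all lists cut to a −log10 q of at least 5, the difference at 2 kb was 1.38 ± 1.04 points (exact permutation p = 0.4). At 20 kb the means were close, 4.47% ± 1.60 and 3.95% ± 1.99, with a difference of 0.52 ± 0.754 points.

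Taken over all acetylated summits, a trough and a shoulder lay on either side of the centre. In steps of 100 bp, the trough between centre and shoulder was 400, 500 and 500 bp from the summit and the shoulder 1300, 1200 and 1200 bp away in animals 5, 7 and 9. The share at that shoulder was 10.6%, 16.1% and 8.76%, against 6.39%, 11.4% and 6.31% in the trough. Both positions were picked on these same profiles, so these shares describe the choice. Picked likewise without H3K27ac, the trough was at 700, 600 and 500 bp and the shoulder at 500, 3000 and 1200 bp. Without H3K27ac the step from 0.5 to 1 kb was -0.15, 0.71 and 0.73 points, compared with 2.97, 4.20 and 1.93 points with it. The difference between these steps was 2.60 ± 1.23 points, with no overlap between animals (exact permutation p = 0.1). Where 8 or more other summits lay within 20 kb the order was the opposite, with a step of -4.10 ± 6.98 points with H3K27ac and 1.76 ± 0.660 points without (exact permutation p = 0.1). Acetylated summits without MBD3 had a step of -2.46 ± 3.59 points. The contrast of 0.5 with 1 kb was chosen after the profile had been seen.

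**Figure D1:**
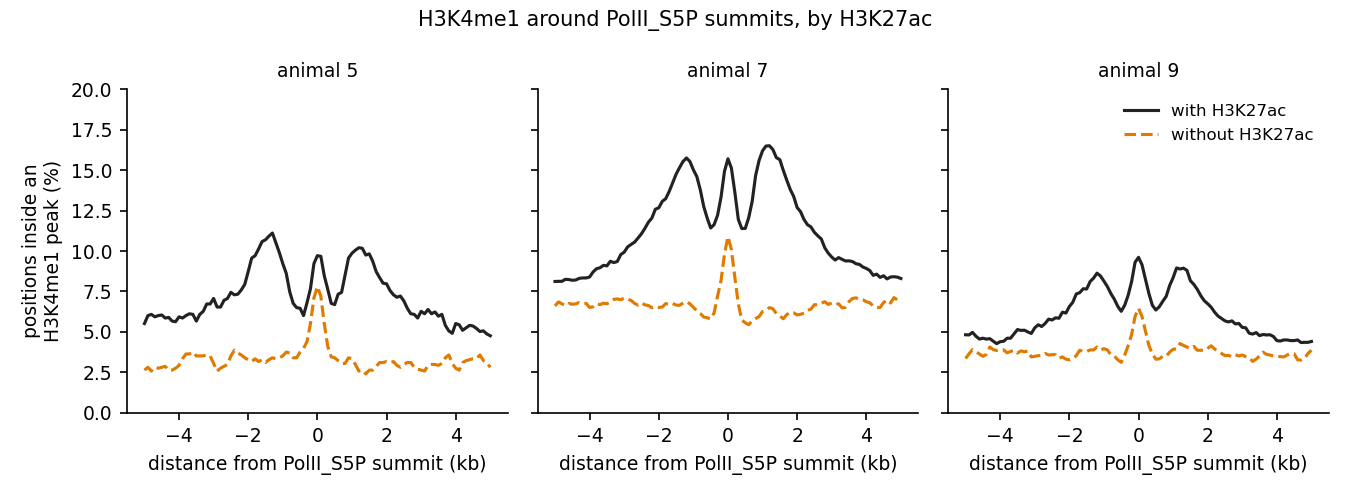
Share of positions inside an H3K4me1 peak (%, vertical axis) against distance from the PolII_S5P summit (kb, horizontal axis), in steps of 100 bp, for PolII_S5P peaks with (solid) and without (dashed) an overlapping H3K27ac peak. The acetylated line peaks at the centre and again in a pair of shoulders 1200 to 1300 bp away, which are higher than the centre in animals 5 and 7 and lower in animal 9, while the other line is highest at the centre.

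Marked flanks went with H3K27ac as well. A single flank was marked at 37.2%, 39.0% and 29.2% of acetylated summits and at 11.5%, 20.7% and 15.8% of the others. The groups did not overlap, and the difference was 19.1 ± 6.23 points (exact permutation p = 0.1, adjusted p = 0.2 over 2 comparisons). Both flanks were marked at 12.8%, 20.6% and 10.2% of acetylated summits against 5.40%, 10.9% and 6.24%. Animal 7 without H3K27ac lay above animal 9 with it, and the difference was 7.01 ± 2.91 points (exact permutation p = 0.2). It was 0.497 ± 0.622 points with all lists cut to a −log10 q of at least 5 and 0.629 ± 0.318 points when 0.5 of a window had to be covered.

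Summits without H3K27ac had neither flank marked in 76.5% ± 7.45 of cases (SD, n = 3), compared with 50.4% ± 10.1 of acetylated summits. When the left flank was marked, the right was marked too at 46.7%, 51.4% and 43.9% of summits without H3K27ac and at 40.5%, 51.6% and 41.1% of acetylated ones. Right flanks were marked at 10.7%, 21.3% and 14.1% of all summits without H3K27ac and at 31.2%, 40.2% and 24.8% of acetylated ones. Both flanks fell together 4.35, 2.41 and 3.11 times as often as the product of their shares without H3K27ac. With it the ratios were 1.30, 1.28 and 1.66.

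**Figure D2:**
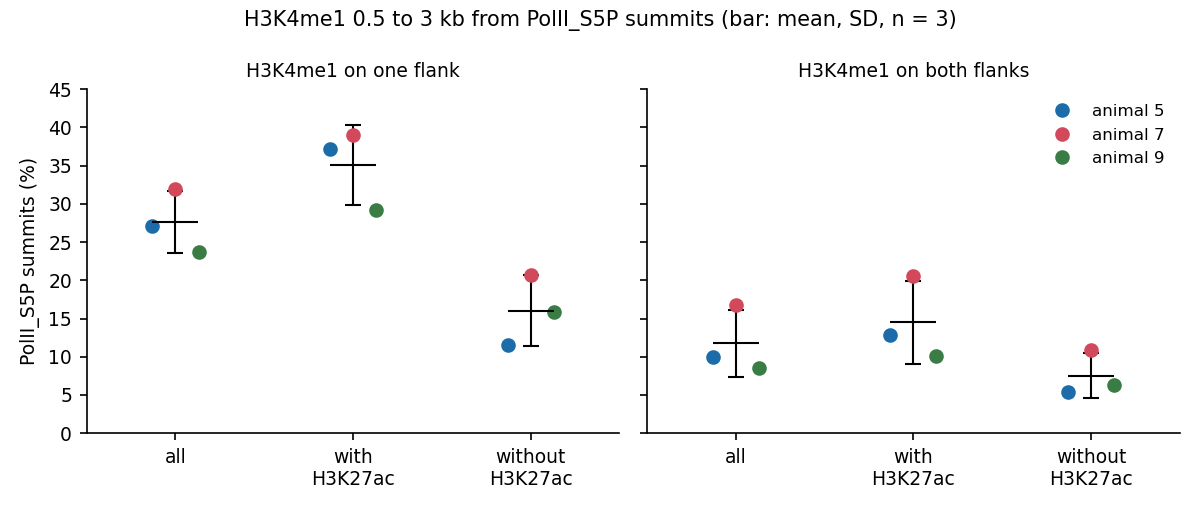
Share of PolII_S5P summits (%, vertical axis) with H3K4me1 on one flank (left) or on both flanks (right), for all summits and for those with and without H3K27ac; points are animals, bars the mean and SD (n = 3). The single-flank values of the acetylated group, 29.2 to 39.0%, all lie above those without H3K27ac, 11.5 to 20.7%, while the both-flank values overlap.

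The acetylated chromatin around the polymerase was itself split by position. H3K27ac peaks covered 89.2% ± 5.35 of acetylated PolII_S5P summits, 37.6% ± 2.70 of the positions at 1 kb and 20.9% ± 1.62 at 2 kb (SD, n = 3). Positions 2 kb away carried H3K4me1 in 15.1%, 27.04% and 17.0% of cases when inside an H3K27ac peak and in 6.63%, 8.45% and 4.13% when outside. The animals did not overlap (exact permutation p = 0.1, adjusted p = 0.114 over 8 offsets). At the summit itself the corresponding means were 12.1% inside and 9.32% outside, and the animals overlapped (exact permutation p = 0.6).

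Polymerase-bound acetylated sites differed in the shape of the H3K4me1 profile from acetylated sites without polymerase, while their flank calls overlapped. The comparison set was 171061 H3K27ac summits whose peak overlapped no PolII_S5P peak. H3K4me1 covered 16.8%, 24.0% and 12.7% of those summits in animals 5, 7 and 9, compared with the 9.71%, 15.7% and 9.61% at acetylated PolII_S5P summits. At 2 kb the order was the other way round, with 5.00%, 7.24% and 3.73% against 8.35%, 12.7% and 6.66%. From the summit to 2 kb the share changed by -12.5 ± 3.96 points without polymerase and by -2.45 ± 0.940 points with it, a difference of 10.0 ± 3.89 points without overlap (exact permutation p = 0.1). The smaller change was not common to all acetylated sites with polymerase. Those without MBD3 changed by -20.3 ± 8.87 points. Those with 8 or more other PolII_S5P summits within 20 kb changed by -22.5 ± 5.22 points.

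The single differences at the summit, -6.13 ± 2.73 points, and at 2 kb, 3.91 ± 1.35 points, had the same sign in each animal, but their values overlapped (exact permutation p = 0.2 each). The step from 0.5 to 1 kb also separated both kinds of site, at 3.03 ± 1.13 points with polymerase and -0.33 ± 0.457 points without (exact permutation p = 0.1). Flank calls were higher with polymerase within each animal, but their values overlapped between animals. A single flank was marked at 35.1% ± 5.23 of summits with polymerase and 28.8% ± 4.75 without (exact permutation p = 0.3). The differences within animals 5, 7 and 9 were 6.93, 6.37 and 5.69 points. Both flanks were marked at 14.5% ± 5.40 and 10.4% ± 3.94, again with overlap (exact permutation p = 0.4). Here the differences within animals were 3.27, 5.90 and 3.26 points. With lists of equal length the difference at the summit was -2.48 ± 4.39 points. MBD3 overlapped 83.7%, 80.4% and 68.2% of the acetylated PolII_S5P peaks and 45.9%, 42.0% and 32.5% of the H3K27ac peaks without polymerase, and its part in the result was not tested. The centres are not the same kind of position, being polymerase summits in 1 set and H3K27ac summits in the other.

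How densely PolII_S5P summits lay together went with the level at the centre. The classes were set after the profile had been seen. Summits with no other PolII_S5P summit of that animal within 20 kb, called isolated, numbered 2093, 5972 and 4979. Those with 8 or more, called crowded, numbered 322, 3188 and 1773. H3K4me1 covered 4.73%, 5.53% and 2.99% of isolated summits and 22.7%, 33.3% and 25.4% of crowded ones.

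The difference at the summit was 22.7 ± 4.91 points with no overlap (exact permutation p = 0.1, adjusted p = 0.114 over 8 offsets). The means of the classes between them were ordered, at 7.50% for 1 neighbour, 9.32% for 2 to 3 and 15.1% for 4 to 7. In animal 5 the share went from 8.80% for 1 neighbour to 8.39% for 2 to 3, against that order. At 1 kb the isolated and crowded values overlapped, with 7.85% ± 2.99 against 15.5% ± 5.05 (exact permutation p = 0.2). At 20 kb they stood at 2.02% ± 0.599 against 12.4% ± 4.57. The classes count other summits within 20 kb, so positions away from the centre differ by definition in how many PolII_S5P summits lie near them.

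Taken over all isolated summits, the shoulder stood above the centre. Their mean share was 4.42% at the summit, 3.86% at 0.5 kb, 7.85% at 1 kb and 5.88% at 2 kb. The change from the summit to 2 kb was 2.13, 1.88 and 0.372 points upward in animals 5, 7 and 9, whereas in crowded summits it was -11.5, -13.1 and -11.1 points. The difference between these changes was -13.4 ± 1.77 points (exact permutation p = 0.1). Over all summits the change was downward, by the -3.05 points given above. For isolated summits the values at the summit and at 2 kb overlapped (exact permutation p = 0.4, adjusted p = 0.467 over 7 offsets). Isolated summits without H3K27ac changed by -3.21, -3.77 and -1.3 points. Isolated acetylated summits changed by -19.6 ± 14.2 points without MBD3 and by 4.08 ± 1.92 points with it, so the dip was not common to all isolated summits.

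**Figure D3:**
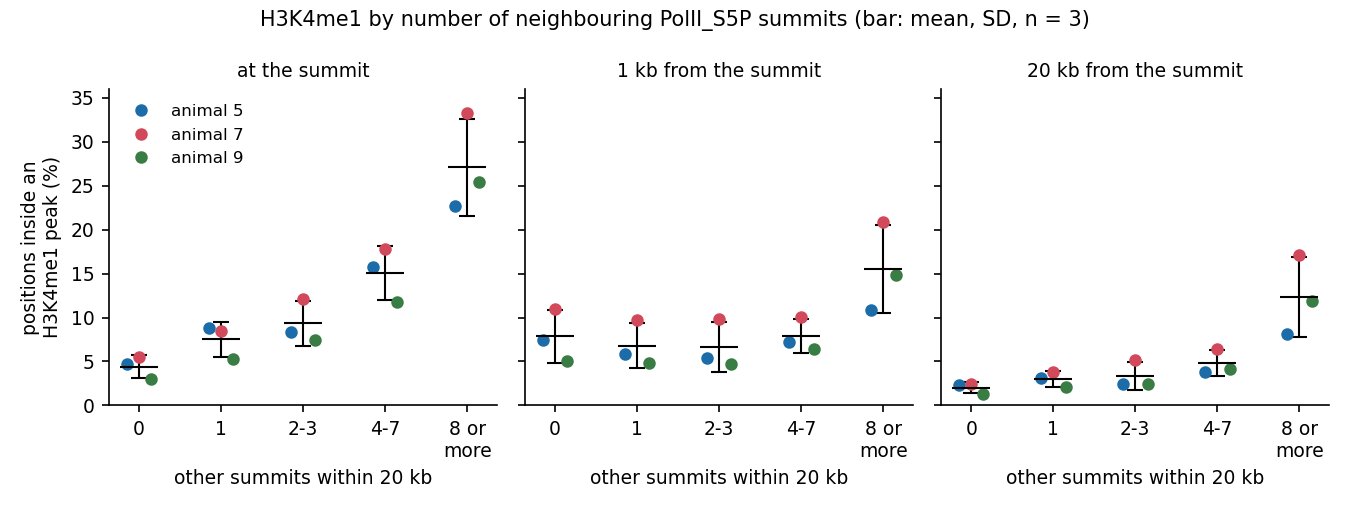
Share of positions inside an H3K4me1 peak (%, vertical axis) by the number of other PolII_S5P summits of the same animal within 20 kb (horizontal axis), at the summit, at 1 kb and at 20 kb; points are animals, bars the mean and SD (n = 3). At the summit the means go from 4.42% for isolated to 27.1% for crowded summits, while at 1 kb the isolated class is not the lowest.

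Crowded and isolated summits also differed in what else they carried. H3K27ac overlapped 82.9%, 78.0% and 73.7% of isolated peaks and 34.8%, 48.2% and 47.3% of crowded ones. MBD3 overlapped 79.6%, 80.6% and 68.2% of isolated and 13.7%, 20.2% and 11.4% of crowded peaks. Both kinds of peak, with and without H3K27ac, are therefore given separately for isolated and crowded summits.

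Among isolated summits, those with and without H3K27ac overlapped at the centre and separated beside it. H3K4me1 covered 4.44%, 5.26% and 3.05% of isolated acetylated summits and 6.15%, 6.47% and 2.83% of isolated summits without H3K27ac (exact permutation p = 0.6). At 1 kb the values were 8.47%, 12.9% and 5.86% against 2.51%, 4.27% and 2.87%, without overlap (exact permutation p = 0.1, adjusted p = 0.4 over 8 offsets). Among crowded summits the centre did separate, at 45.5%, 50.7% and 36.8% with H3K27ac and 10.5%, 17.1% and 15.2% without (exact permutation p = 0.1).

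Acetylated summits without MBD3 carried more H3K4me1 than those with it, most of all at the centre. This split, too, was chosen after the profile had been seen. Acetylated PolII_S5P peaks overlapping an MBD3 peak numbered 2216, 9585 and 5091 in animals 5, 7 and 9, and those without numbered 430, 2339 and 2369. H3K4me1 covered 4.02%, 8.58% and 4.56% of the summits with MBD3. It covered 39.1%, 44.9% and 20.5% of those without.

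The difference of -29.1 ± 11.4 points exceeded the SD within either group, 2.49 and 12.8 points, and left no overlap (exact permutation p = 0.1, adjusted p = 0.133 over 8 offsets). It was -19.3 points with all lists cut to a −log10 q of at least 5. At 1 kb the gap was narrower, at 8.73%, 13.8% and 6.66% with MBD3 and 13.7%, 23.2% and 11.7% without, and the values overlapped (exact permutation p = 0.3). At 3, 5, 10 and 20 kb it was -9.67, -8.52, -7.83 and -7.51 points, again without overlap (exact permutation p = 0.1 each). With MBD3 the share at 2 kb exceeded that at the summit by 3.66, 1.97 and 0.47 points. Without MBD3 it changed by -27.2, -23.5 and -10.3 points.

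**Figure D4:**
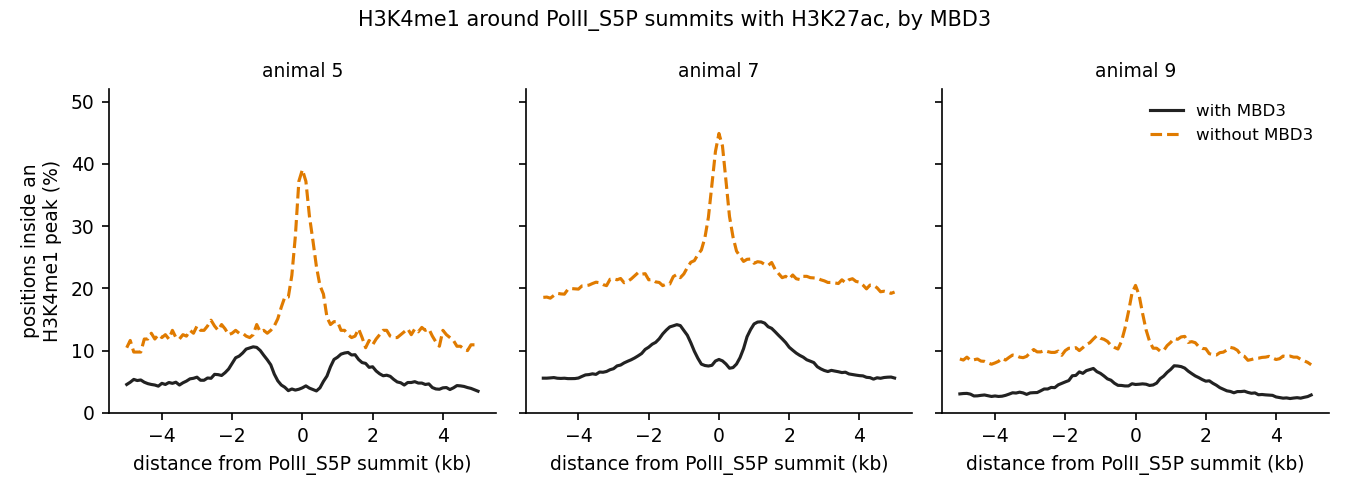
Share of positions inside an H3K4me1 peak (%, vertical axis) against distance from the PolII_S5P summit (kb, horizontal axis) for acetylated PolII_S5P peaks with (solid) and without (dashed) an overlapping MBD3 peak. The dashed line has its maximum at the centre, 39.1%, 44.9% and 20.5% in animals 5, 7 and 9, where the solid line is at 4.02%, 8.58% and 4.56% and is higher to the sides.

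Both flanks were marked at 10.6% ± 4.55 of acetylated summits with MBD3 and at 29.4% ± 11.7 of those without (SD, n = 3; exact permutation p = 0.1, adjusted p = 0.2). A single flank was marked at 35.2% ± 7.1 and 32.9% ± 1.48. These means are close, but the differences within animals 5, 7 and 9 were 7.19, 6.37 and -6.45 points, without a common direction. Among isolated acetylated summits the centre still differed, at 2.04%, 3.85% and 2.05% with MBD3 and 38.3%, 37.4% and 7.69% without. Isolated summits made up 73.1%, 46.6% and 59.3% of the acetylated summits with MBD3 and 26.7%, 8.34% and 27.4% of those without. Animal 9, with the shortest MBD3 list (38821 peaks against 56738 and 61187), had by far the smallest difference there, 5.64 points lower with MBD3.

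The acetylated sets also differed in their H3K27ac peaks. Median widths of the overlapping H3K27ac peak were 1636, 1468 and 1266 bp with MBD3 and 908, 959 and 866 bp without, and the authors' median fold enrichments were 7.41, 5.85 and 4.70 against 3.88, 3.97 and 4.09. Within 3 classes of H3K27ac width, the share at the summit was lower with MBD3 in all 9 combinations of class and animal, by -15.2 to -43.1 points. The classes did not level the sets. In the narrowest class median widths were 817, 640 and 502 bp with MBD3 and 548, 489 and 447 bp without. In the widest class they were 3183, 3109 and 2571 bp against 4034, 3730 and 3058 bp. Median fold enrichments in the middle class were 7.29, 5.77 and 4.63 against 4.25, 4.21 and 4.32. Summits without H3K27ac seldom had MBD3, with 123, 761 and 530 such peaks. At these the centre was covered at 14.6%, 9.99% and 2.83%, against 7.27%, 11.0% and 6.88% with neither mark, with no common direction in the 3 animals.

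The H3K4me1 peaks nearest to covered summits can be described by distance and width, both of which the choice of covered summits and of the flank window constrains. At the 390, 2698 and 1044 covered summits, the nearest H3K4me1 summit was a median of 124, 194 and 164 bp away, and within 50 bp in 27.4%, 20.7% and 21.7% of cases. The nearest peaks had median widths of 702, 882 and 727 bp. Where a flank alone was marked, the nearest H3K4me1 summit lay 1405, 1344 and 1376 bp away, and the widths were 472, 544 and 502 bp, close to those of all H3K4me1 peaks. Of the covered summits 27.4%, 33.3% and 23.7% had MBD3, compared with 78.0%, 68.1% and 51.5% of those marked on a flank alone.

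Seen from H3K4me1, few peaks met polymerase. A PolII_S5P summit lay inside 1.09%, 5.36% and 4.34% of the H3K4me1 peaks and within 3 kb of 6.42%, 25.0% and 20.1%. These shares were in the order of the lengths of the PolII_S5P lists.

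The strength of the polymerase peak was related to the centre more than to the sides. PolII_S5P peaks were put in 5 classes of equal number by the authors' fold enrichment within each list. H3K4me1 covered 2.87%, 7.07% and 1.24% of summits in the lowest class and 10.9%, 12.1% and 11.9% in the highest. The class means from lowest to highest were 3.73%, 8.92%, 12.8%, 14.7% and 11.6%, so the fourth class was above the fifth. The difference between the outer classes was 7.92 ± 2.81 points (exact permutation p = 0.1, adjusted p = 0.571 over 8 offsets), and it became -0.72 points with lists of equal length and 2.87 points among isolated summits. MBD3 overlapped 74.2%, 56.9% and 59.5% of the peaks in the lowest class and 37.9%, 64.5% and 45.7% in the highest, and its part in the result was not tested. At 1 kb the same classes had 7.84% ± 3.22 and 7.75% ± 2.45 (exact permutation p = 1.0).

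Summits in regions found in a single animal carried more H3K4me1 at the centre than those found in all. PolII_S5P peaks merged across animals gave 23062 regions, of which 13856 had a peak in 1 animal, 6168 in 2 and 3038 in all 3. H3K4me1 covered 15.9%, 16.8% and 14.0% of summits in regions of 1 animal and 7.66%, 8.11% and 5.33% in regions of all 3. The difference was -8.53 ± 0.263 points, nearly the same in each animal (exact permutation p = 0.1, adjusted p = 0.267). At 1 kb it shrank to -1.46 ± 0.459 points with overlapping values (exact permutation p = 0.5). MBD3 overlapped 20.1%, 40.8% and 24.8% of the peaks in regions of 1 animal and 59.9%, 65.1% and 48.4% in regions of all 3, and its part in the result was not tested. This split was chosen after the profile had been seen.

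In the 3038 regions with polymerase in all animals, flank calls could be followed from animal to animal at the strongest summit. The same number of marked flanks was found in all 3 animals at 1825 regions, or 60.1%. Most of these, 1403, had neither flank marked, 306 had a single one and 116 had both. H3K4me1 was at the summit in all 3 animals at 103 regions, 3.39%, and in at least 1 animal at 311, 10.2%. Of the 1903 regions acetylated in all 3 animals, 588, or 30.9%, had neither flank marked in any animal, and of the 825 regions acetylated in none, 687, or 83.3%, did.

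Single regions show what these classes look like. Positions are on mm39, counted from 1, and distances are from the PolII_S5P summit. Each class was ranked by the PolII_S5P fold enrichment within the lists, and the first regions are described. Their fold enrichments are the authors'.

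The textbook arrangement of 2 marked flanks with a free summit held in all 3 animals at 30 acetylated regions. The best ranked, chr9:64928680-64929292, is isolated in animals 5 and 9 and has MBD3 and H3K27ac in every animal. Several H3K4me1 peaks lay on its left side. In animal 5 the nearest H3K4me1 peaks ran from -1899 to -1221 bp and from 530 to 1145 bp. In animal 7 they ran from -1914 to -1118 bp and from 477 to 935 bp, and in animal 9 from -1816 to -1199 bp and from 583 to 937 bp. A further H3K4me1 peak within the left window began at -2791, -2689 and -2805 bp, so the same peaks recurred in each animal around an unmarked summit. The second, chr16:34057174-34058035, lies in a crowded stretch with 6, 30 and 25 other summits within 20 kb, and its left H3K4me1 peak ended 58, 74 and 202 bp before the summit.

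Both flanks and the summit were marked in all 3 animals at 31 acetylated regions. At the first, chr9:40717787-40720018, a single H3K4me1 peak crossed the summit, from -138 to 1875 bp, -420 to 1425 bp and -173 to 1769 bp in animals 5, 7 and 9. The second, chr8:20152464-20152867, was crossed by an H3K4me1 peak from -920 to 169 bp, -875 to 237 bp and -871 to 232 bp, with fold enrichments of 7.09, 9.33 and 8.66. It had H3K27ac but no MBD3 in any animal, and 4, 7 and 10 other summits within 20 kb.

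The same single side was marked in all 3 animals at 251 acetylated regions. At the strongest, chr11:69648801-69649773, with PolII_S5P fold enrichments of 11.95, 27.4 and 17.5, H3K4me1 within 3 kb lay only to the left, with an inner border at -1056, -1013 and -2734 bp. At chr15:80682600-80683050 it lay only to the right, starting at 2229, 2315 and 2263 bp. A directly neighbouring pair on chromosome 9 fell in different classes, since chr9:40712442-40717446, adjacent to the region at 40717787, was marked on a single side.

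Neither flank was marked in any animal at 588 acetylated regions, the most numerous of the named acetylated classes. The best ranked by PolII_S5P, chr12:54743403-54743962, had PolII_S5P fold enrichments of 49.6, 48.5 and 64.9, with H3K27ac and MBD3 in each animal. The next regions in rank, chr12:54756880-54757524 and chr12:54784984-54785592, are neighbours of it on the same chromosome. The 4 strongest regions without H3K27ac, chr6:49194318-49195808, chr10:102862385-102864382, chr13:120426429-120429771 and chr13:120556311-120559189, had fold enrichments of 17.2 to 28.98. None of these had MBD3, a marked flank or H3K4me1 at the summit in any animal.

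**Figure D5:**
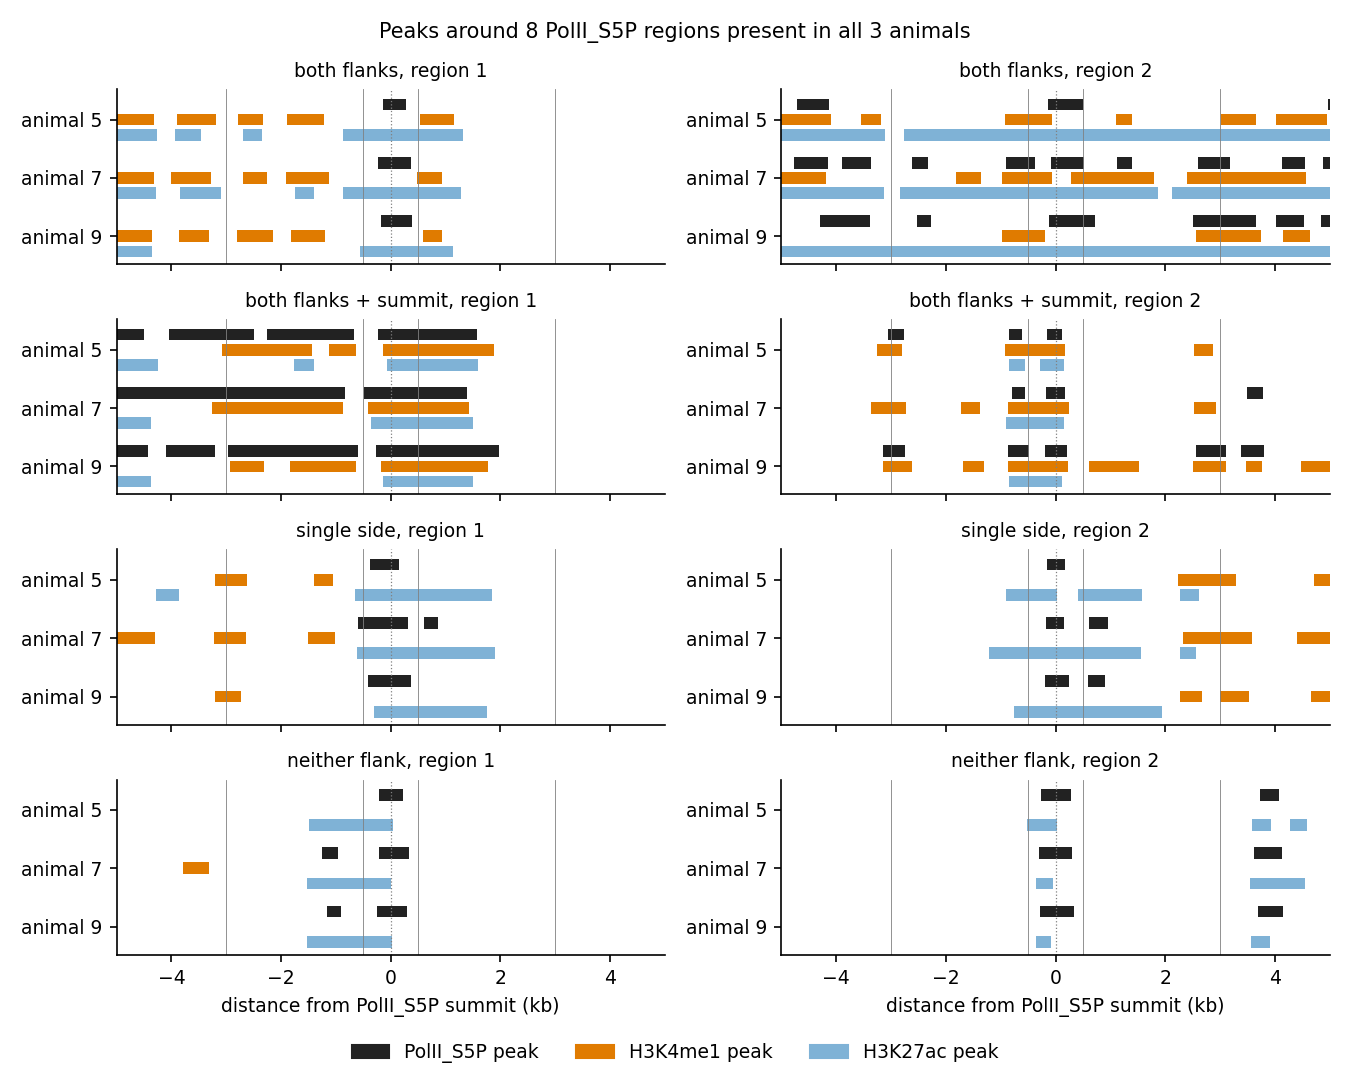
PolII_S5P (black), H3K4me1 (orange) and H3K27ac (blue) peaks of animals 5, 7 and 9 around the PolII_S5P summit (horizontal axis, kb from the summit) for the first 2 regions of 4 classes; grey lines mark 0.5 and 3 kb. In the first region with both flanks marked, the nearest H3K4me1 peak on the right begins at 477 to 583 bp and the nearest on the left ends at -1118 to -1221 bp.

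The level of these shares went with the H3K4me1 list used. When the summits of animal 5 were set against the H3K4me1 lists of animals 5, 7 and 9, 8.96%, 9.68% and 6.25% were covered. The summits of animal 7 gave 9.33%, 13.8% and 7.26%, and those of animal 9 gave 9.82%, 13.2% and 8.33%. For each set of summits the longest H3K4me1 list, of animal 7, gave the highest share and the shortest, of animal 9, the lowest. Both flanks behaved alike, with 9.91%, 12.8% and 6.76% for the summits of animal 5. Read depth is unknown, so a position outside a peak is one not called at that library's depth.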

How the data were processed

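ChIP-seq peak lists of 3 mouse cortices were used, 1 list per library, not pooled. The submitters' processing notes name, with no order of steps, MACS2 2.2.7.1 (a peak caller), Picard 2.18.29, SAMtools 1.16.1, Trim Galore 0.6.7 and bcl2fastq 2.20, and mm39 among the builds. Neither aligner nor peak-calling control is given in the sources used here. Each deposited peak has a whole-number score, a fold over local background (a ratio), the −log10 of its p-value and of its q-value (1.30 or more in the lists used) and, as another kind of value, the distance of its summit from its start in bp. TDG lists and the 3 input samples were not used here.

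Shares were computed with numpy 2.4.6 and pandas 2.3.3 in Python 3.11.15, tests and intervals with scipy 1.17.1, and plots with matplotlib 3.10.9. Overlap meant at least 1 bp. Values per animal were compared by two-sided exact permutation tests, 143 in 41 families, with Benjamini-Hochberg adjustment within a family. Per the labels, a number stands for 1 animal across antibodies and so pairs the libraries. Mean deviations of acetylated and other summits had the same sign in each animal, at -1.11 and -1.27, 2.98 and 2.13, and -1.88 and -0.861 for animals 5, 7 and 9. The unpaired tests and the overlap of values do not take out this shared part. Across offsets the deviations correlated at -0.87, -0.37 and 0.23 within animals, which does not measure the pairing. The code was tested on simulated data of 6000 summits, where its 8 shares departed from the planted ones by 0 percentage points. Summits are not replicates.

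The members and lists were chosen with earlier results of these data known. Regions named were the 4 with the best mean rank of fold enrichment in each of 5 classes. Gene names, markers and sequences were not used here, since the gene table at hand is on GRCm38.p6. Alternatives covered the q-value threshold, coverage rule, peak merging, list length, centre, flank window, H3K27ac rule, chromosome X, single animals and the pairing.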

Additional observations from a re-analysis of the deposited data

Results flagged for a closer look

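The change of the H3K4me1 share from the PolII_S5P summit to 2 kb went in opposite directions in 4 pairs of summit groups, in every animal of each group. Among acetylated summits it was 2.03 points with MBD3 and -20.3 points without, a difference of 22.36 points. Isolated and crowded summits differed by 13.36 points, with 1.46 and -11.9. The lowest and highest classes of PolII_S5P fold enrichment differed by 5.96 points, with 1.97 and -3.98. Isolated summits with and without H3K27ac differed by 5.32 points, with 2.56 and -2.76. In each case the exact permutation p was 0.1, which 3 animals against 3 cannot go below. The pairs were flagged on these same values, and opposite signs in every animal already fix this p, so it adds no support. The MBD3, crowding and isolated splits overlap in their members.

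Chromosome X, which the comparisons do not use, also had H3K4me1 beside some PolII_S5P summits. At least 1 flank was marked at 11.11%, 11.26% and 10.69% of its summits in animals 5, 7 and 9, which is 6 of 54, 34 of 302 and 17 of 159. A count of 0 would have allowed shares of up to 5.56%, 0.993% and 1.89%. On chromosomes 1 to 19 the shares were 37.0%, 48.7% and 32.3%, and the difference was not tested.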

How the results depend on the processing

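Of 140 alternative values of 11 differences, 136 kept their direction. Part of this count was fixed in advance. The pairing alternative repeats the main value, and leaving out 1 animal cannot turn a difference that has 1 sign in all 3 animals. Direction says little about size, which shrank for several differences with stricter peaks. The 4 that turned are given here beside others that shrank. With isolated summits only, the share at 2 kb minus that at the summit was 1.46 in place of -3.05 points, and the H3K27ac difference at the summit was -0.90 in place of 3.29. With a −log10 q of at least 5 the latter was -1.18. At that threshold the change from the summit to 2 kb was -0.79. With lists of equal length the difference between fold classes was -0.72 in place of 7.92. With such lists the step from 0.5 to 1 kb was 0.827 in place of 2.01. The cause was not tested.

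With a −log10 q of at least 5, the share at the summit was 4.15% in place of 10.4%, at 2 kb 3.36%, with both flanks 3.41%, with one flank 15.5%, and at the summit against another animal's H3K4me1 list 3.62% in place of 9.26%. With isolated summits only, the first was 4.42%, the last 4.05% and one flank 32.5%. Requiring 0.5 of the flank window to be covered gave 0.971% for both flanks and 5.84% for one flank.

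With the replicate block, pairing by animal, the sign-flip p of the change from the summit to 2 kb (-3.05 points) was 0.25, the smallest that 3 pairs allow, and like the unpaired test it cannot pass 0.05. Leaving out each animal in turn changed no direction of the 11 differences. Only 1 of them could have turned, the H3K27ac split of the change from the summit to 2 kb. Its values were 3.21, 1.59 and -0.133 points in animals 5, 7 and 9. The others had 1 sign in all 3 animals. Peak lists carry no depth, so how much H3K4me1 lay below the calling threshold is unknown.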

Other observations

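Covered summits were gathered in few places. In windows of 0.5 Mb, the 20 windows with the most covered summits of each animal held 45.6%, 25.2% and 35.4% of all PolII_S5P summits inside H3K4me1 in animals 5, 7 and 9, and 8.48%, 7.31% and 8.75% of all PolII_S5P summits. The windows were ranked by the count of covered summits, so these shares describe the ranking. The window from 6500001 to 7000000 on chromosome 2 (mm39) held 63, 158 and 139 summits, of which 36, 67 and 32 were covered. The window from 31000001 to 31500000 on chromosome 6 held 34, 97 and 102 summits, of which 25, 50 and 35 were covered. H3K27ac overlapped 18, 33 and 29 of all the PolII_S5P peaks in that window. On chromosome 15, 68500001 to 69000000 held 17, 100 and 81 summits, with 12, 56 and 29 covered.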
